A study of Homo sapiens with 2 samples.

Results

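The stretch described here covers 3 Mb of chromosome 11 in band p13, from 33500001 to 36500000 on GRCh38, and was chosen by the number and closeness of the regions called for lysine lactylation there. All regions of the authors' 2 peak lists that touch this window were taken as members, a region being a unique start and end. The untreated-labelled library gave 209 members of its 43680 regions and the lactate-labelled library 207 of its 50352, in all 416 of 94032. Density chose the stretch, so its density is given as a description with no test.

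CAL27 is an established human line of oral squamous cell carcinoma. CUT&Tag with an antibody against pan-lactyllysine was carried out on 1 library of CAL27 cells with no treatment and on 1 library of CAL27 cells given 10 mM lactate for 24 hours. In CUT&Tag a transposase tethered to the antibody cuts DNA near the mark, and each cut gives a tag. The headers report 15696147 tags for the untreated-labelled library and 15120031 for the lactate-labelled library. The libraries are called here untreated-labelled and lactate-labelled, and paired values stand in that order. In both lists the header's run name, its input and all peak names carry the other sample's name, while its name line carries the label. The samples were kept as labelled, and every direction between libraries given here would turn if the lists were exchanged. With 1 library per group there was no replicate error and no test between libraries, and intervals cover counting error only.

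Lysine lactylation is an acyl mark that can be derived from lactate and is found on histones and other proteins. A pan-lactyllysine antibody does not say which protein or residue carries it. The stretch holds genes of varied roles. ELF5 and EHF are ETS transcription factors of epithelia. CD44 is the cell-surface receptor for hyaluronan, CAT is catalase, and PDHX is a structural subunit of the pyruvate dehydrogenase complex, which feeds pyruvate into the citric acid cycle.

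The promoter sequences shown are those under the members of highest fold enrichment over a gene start. Among members, these are the gene starts where the mark stood out most above its surroundings. The sequences come from RefSeq on GRCh38.p14, stop before the listed start and run 5′ to 3′ on the gene's strand. The bases between the listed starts of APIP and PDHX are given on the plus strand. Capitals mark the ETS core GGAA or its complement TTCC. The CD59 stretch lies at chr11:33736480-33736729 (minus strand), CAPRIN1 at chr11:34051481-34051730 (plus), NAT10 at chr11:34105379-34105628 (plus), CAT at chr11:34438684-34438933 (plus) and the bases between APIP and PDHX at chr11:34916380-34916437.
CD59: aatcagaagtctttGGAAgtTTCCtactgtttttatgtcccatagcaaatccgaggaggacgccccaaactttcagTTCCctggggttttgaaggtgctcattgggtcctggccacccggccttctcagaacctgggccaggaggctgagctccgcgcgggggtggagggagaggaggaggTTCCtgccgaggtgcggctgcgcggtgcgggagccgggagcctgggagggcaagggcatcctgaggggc
CAPRIN1: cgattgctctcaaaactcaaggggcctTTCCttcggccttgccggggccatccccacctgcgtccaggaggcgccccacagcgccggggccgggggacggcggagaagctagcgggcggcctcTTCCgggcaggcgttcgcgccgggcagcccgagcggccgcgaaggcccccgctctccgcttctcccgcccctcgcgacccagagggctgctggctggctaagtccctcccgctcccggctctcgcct
NAT10: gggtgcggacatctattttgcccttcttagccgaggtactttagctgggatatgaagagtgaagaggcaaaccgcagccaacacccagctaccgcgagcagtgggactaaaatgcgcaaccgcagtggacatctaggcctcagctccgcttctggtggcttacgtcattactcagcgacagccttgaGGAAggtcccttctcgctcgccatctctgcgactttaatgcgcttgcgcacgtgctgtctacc
CAT: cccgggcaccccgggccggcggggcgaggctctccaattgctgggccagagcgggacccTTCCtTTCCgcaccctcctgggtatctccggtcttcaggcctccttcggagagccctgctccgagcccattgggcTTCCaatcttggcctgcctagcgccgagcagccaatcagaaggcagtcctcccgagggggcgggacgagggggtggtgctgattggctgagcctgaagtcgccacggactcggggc
APIP-PDHX: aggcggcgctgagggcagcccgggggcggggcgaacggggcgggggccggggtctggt

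These 5 sequences held from 0 to 4 ETS cores each, and the CD59 sequence held the 4. The sequence with 0, between APIP and PDHX, has 58 bases, and the others have 250. The core is short and lay, on either strand, in the 250 bases before the start of 92.7% of all 35116 listed promoters, and in 22 of the 24 promoters of the stretch, so it does not set these promoters apart. The AP-1 motif TGANTCA was in 3 of the 24 against 6.57% of all listed promoters, the TATA motif TATAAA in 2 against 10.7%, and the longer ETS form CCGGAA, which contains the GGAA core and was added after the data were seen, in 2 against 14.5%. A match describes letters in the window and not a bound site. The 15 promoters under a region in both libraries, from 13 genes, had a median of 19 CpG in these 250 bases and a GC content of 68.8%. The 6 under no region, from 3 genes, had 2.5 and 48.8%, and all listed promoters had 11 and 58.0%. The 6 include the listed promoters of ELF5 and EHF, which lie inside those gene models and not at their starts.

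Regions were dense across the stretch and close to evenly numerous in both libraries. The untreated-labelled library had 69.7 regions per Mb in the stretch and 18.0 per Mb over the 3-Mb flanks on both sides, which held 108 regions. The lactate-labelled library had 69.0 and 15.7 per Mb, with 94 regions in the flanks. The density was 3.87-fold and 4.40-fold that of the flanks. The members covered 98.4 kb, or 3.28% of the stretch, in the untreated-labelled library and 99.2 kb, or 3.31%, in the lactate-labelled library, against 0.634% and 0.598% of the flanks. Protein-coding genes numbered 22 in the stretch, 17 in the lower flank and 4 in the upper. When the genome, with the members left out, was divided on a fixed grid of 3-Mb stretches, 0 of 977 held as many regions in the untreated-labelled library. In the lactate-labelled library 1 of 979 did. The window was chosen by its density and the grid was not, so this place follows from the choice and is a description.

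The edges of the window were set by the rule and not by the data. The lowest members lay 0.021 Mb and 0.0528 Mb inside the lower edge, with 57 and 100 tags in the 10 kb around the summit. The nearest regions below the edge had 51 and 83 tags. At the upper edge, the last members had 160 and 134 tags, and the next regions beyond it, starting at 36500499 and 36500194 inside TRAF6, had 210 and 193. Neither edge of the window is therefore a step in the signal.

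The members were longer and taller than regions elsewhere, while their fold enrichment was not higher. Pileup is the number of overlapping extended tags at a summit. Its median was 27 in the untreated-labelled library and 30 in the lactate-labelled library, against 13 in both sets of flanks and 14 and 15 over all other regions. Median length was 390 and 392 bp, against 289 and 304 bp in the flanks. Fold enrichment is the authors' ratio of pileup to local background. Its median was 3.86 and 4.26 in the stretch, 4.14 and 4.68 in the flanks and 4.63 and 4.87 elsewhere. The intervals of the stretch's medians, 3.56 to 4.19 and 3.90 to 4.69, included the flanks' medians, and the upper flank in the lactate-labelled library had 4.25.

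The local background, recomputed from pileup and fold, corresponded to a whole number of tags in the 10 kb around each summit. Members had a median of 328 such tags in the untreated-labelled library (quartiles 213 and 494, range 57 to 1033) and 335 in the lactate-labelled library (quartiles 197 and 513, range 77 to 1040). The flanks had medians of 117 and 112, and all other regions 105 and 109. The windows around members thus had 2.80 and 2.98 times the background of the windows around flank regions. These windows hold the regions' own tags, and places without a region have no value. Of 30 bins of 100 kb in each flank, 8 and 8 held no region in the lower flank and 13 and 16 in the upper.

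**Figure D1:**
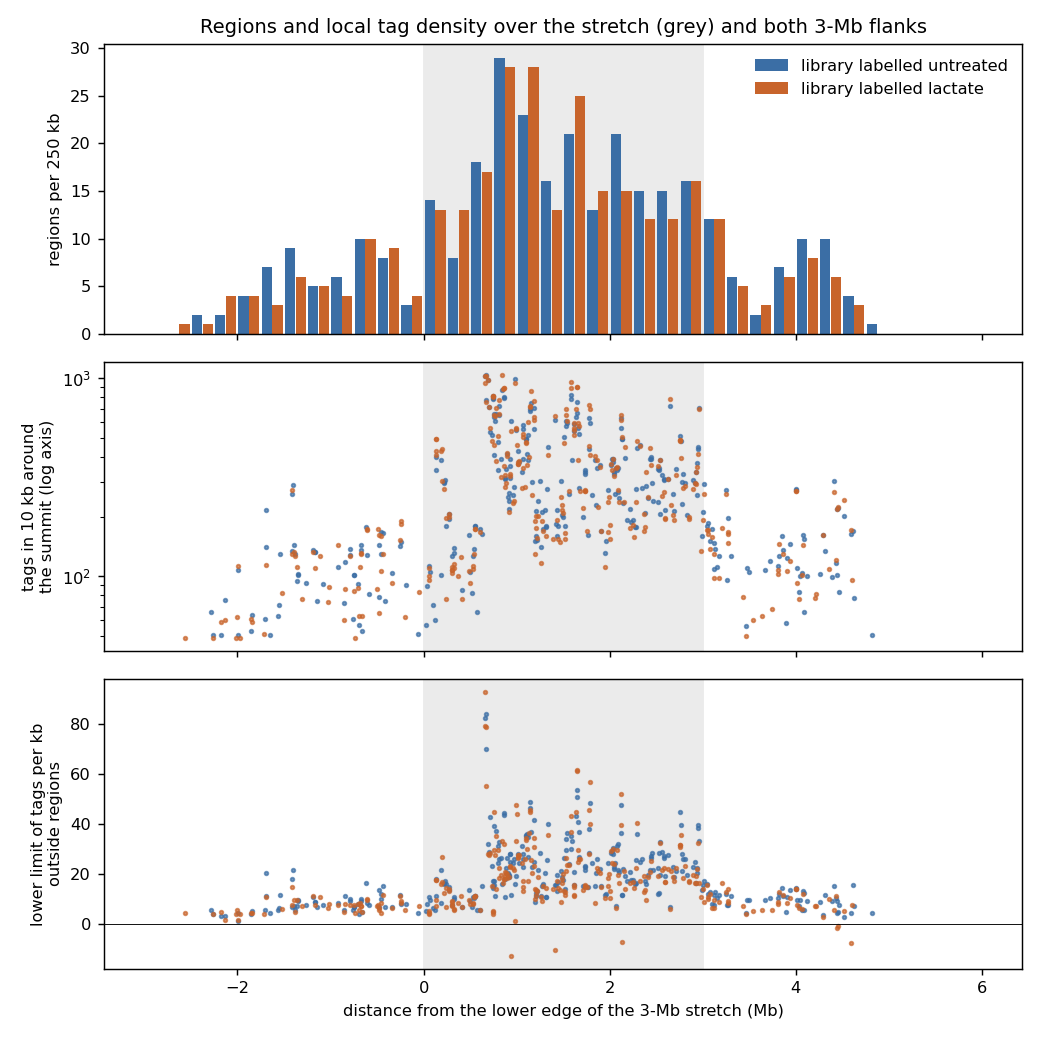
Regions per 250 kb (top), tags in the 10 kb around each region's summit on a log axis (middle) and the lower limit of tags per kb outside regions (bottom), against the distance in Mb from the lower edge of the stretch. Blue is the untreated-labelled library and orange the lactate-labelled library, each point is 1 region and grey marks the stretch. Tags step up about 0.65 Mb above the lower edge, vary beyond it and fall back close to the upper edge in both libraries. A smaller group of high values lies below that step.

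Closely packed regions add their own tags to each other's windows, so members were also set beside flank regions with the same number of neighbours. Regions with no other region within 10 kb numbered 58 and 52 in the stretch, and had medians of 266 and 278 tags, against 104 and 101 for the 63 and 51 such regions of the flanks. With 1 neighbour in the window the medians were 388 and 295 in the stretch and 146 and 170 in the flanks. A lower limit of the tags outside regions was then taken by removing from each window the tags that its regions could hold at their highest pileup. The limit can be negative, as at the CAT promoter region in the lactate-labelled library, with -12.7 tags per kb. This measure, added after the data were seen, had medians of 21.7 and 18.4 tags per kb in the stretch and 8.88 and 7.39 in the flanks, or 2.45 and 2.48 times. The background around members was higher than around flank regions on each of these measures.

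**Figure D2:**
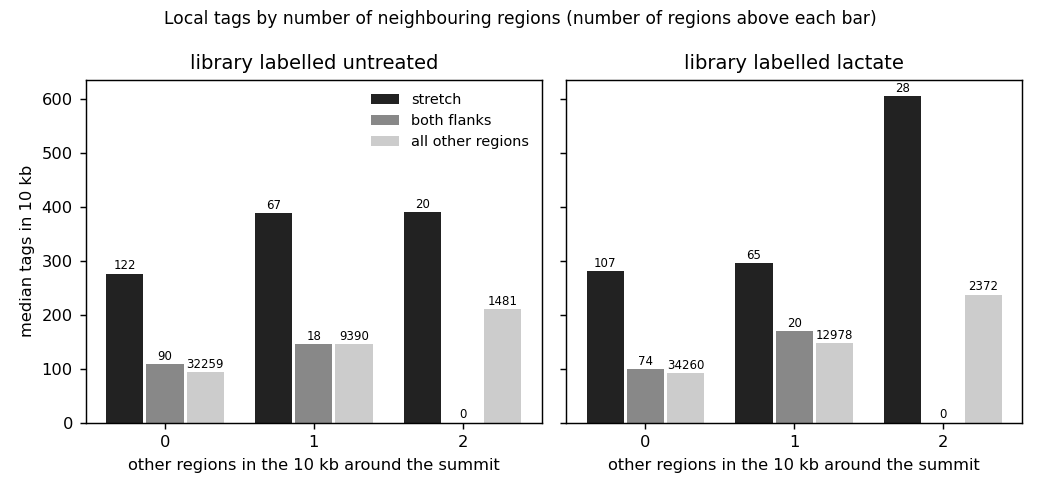
Median tags in the 10 kb around the summit (vertical axis) by the number of other regions in the same 10 kb (horizontal axis), with the number of regions above each bar. In both libraries the stretch (black) lies above the flanks (dark grey) and all other regions (light grey) with 0 and with 1 neighbour, at 276 against 108 and 281 against 99.5 tags with 0. No flank region had 2 neighbours.

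A large rise in background lay inside the window, between NAT10, an RNA acetyltransferase, and ABTB2, an ankyrin and BTB domain protein. It was not the first. The 100-kb bin from 33600001 had medians of 344 tags in the untreated-labelled library and 434 in the lactate-labelled library. By the bin from 33800001 the medians were 131 and 109. The NAT10 promoter region had 173 tags in the untreated-labelled library and 168 in the lactate-labelled library. A region inside NAT10 at chr11:34127121-34127399, called in the untreated-labelled library alone, had 164. The first region of ABTB2 in the untreated-labelled library, at chr11:34162078-34162570, had 1019 tags, and the first in the lactate-labelled library, at chr11:34157206-34157410, had 944. Outside regions, these windows held at least 82.4 and 92.6 tags per kb, against 15.3 and 5.51 around the last NAT10 regions. The tags therefore rose between neighbouring regions in both libraries.

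Beyond this step, as far as PRR5L, a component that binds the mTORC2 kinase complex, the background was mostly above the flanks but uneven. From 34700001 to 35000000 the medians of 100-kb bins were 210, 227 and 200 tags in the untreated-labelled library. They were 182, 160 and 216 in the lactate-labelled library. The bin from 35400001 had 160 and 176, near the 173 and 168 of the NAT10 promoter region. The regions were divided at 34100001, a round position below the rise, so that the upper side still includes the NAT10 regions. From there up, 181 and 176 regions had medians of 349 and 366 tags, and 2 (1.10%) and 5 (2.84%) had fewer than 150. The NAT10 regions themselves lay above that limit. Below that position, 28 and 31 regions had medians of 134 and 115 tags and highest values of 401 and 491. Of them, 57.1% and 58.1% were under 150, and the flanks had 75.9% and 71.3% under 150. All 24 bins of 100 kb from that position up held regions, the first of them straddling the rise, and their medians outside regions ran from 13.6 to 50.9 tags per kb in the untreated-labelled library and from 13.4 to 67 in the lactate-labelled library. The highest such bin medians were 18.1 and 12.6 in the flanks and 16.1 and 16.3 in the stretch below that position. At the upper end, the PRR5L region with its summit at 36456006 had 704 and 698 tags, and the next regions up had 160 and 134. The dividing position was chosen after the data were seen.

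A gain in copies of this part of the chromosome and a denser mark would both add tags, and the 2 cannot be told apart from peak lists of 1 antibody. No library without antibody was used here. Of 738 other 3-Mb stretches with at least 20 regions in the untreated-labelled library, 1 had as high a median number of tags, and of 768 in the lactate-labelled library also 1. That stretch was chromosome 11 from 63 to 66 Mb, with 171 and 204 regions, 376 and 390 tags and 104 protein-coding genes. Chromosome 7 from 0 to 3 Mb, with 40 protein-coding genes, had 180 and 210 regions and 290 and 315 tags. The lower limit outside regions had medians of 24.7 and 24.9, and 23.5 and 23.3, tags per kb there, above the 21.7 and 18.4 of the 11p13 stretch. Chromosome 11 from 66 to 69 Mb, with 82 protein-coding genes and 288 and 299 tags, had 19.6 and 19.5. That was above the 11p13 stretch in the lactate-labelled library alone. Of the stretches named here, the 11p13 stretch had the fewest protein-coding genes.

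A larger share of the members than of regions elsewhere lay inside genes, and a smaller share at gene ends. Inside protein-coding genes, beyond 1 kb of either end, lay 109 (52.2%, Clopper-Pearson 95% interval 45.2 to 59.1) of the regions of the untreated-labelled library and 102 (49.3%, 42.3 to 56.3) of the lactate-labelled library, against 38.5% and 39.1% of regions elsewhere. At an end lay 18 (8.61%) and 19 (9.18%), against 19.4% and 19.9%. Within the stretch, end regions had median fold enrichments of 4.65 and 5.02, and regions inside genes 3.56 and 3.98.

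A region lay within 1 kb of an end in 17 of the 22 protein-coding genes (77.3%) in each library, against a background of 43.5% of all protein-coding genes in the untreated-labelled library and 49.5% in the lactate-labelled library. Of the 18 genes with a listed promoter, 14 and 15 had a region over it, against 40.2% and 46.0%. Both counts include TRAF6, which crosses the upper edge. The region at its start, at chr11:36509723-36510505 in the untreated-labelled library, lies outside the window and is not a member. KIAA1549L, C11orf91, the transcription cofactor LMO2, the glutamate transporter gene SLC1A2 and PRR5L had no region at an end in either library. Because the stretch was chosen for its number of regions, these shares are a description. Among the 18 genes over 30 kb, regions with a summit in the gene body, its ends included, had a median density of 5.91 per 100 kb in both libraries, and all genes of that length had 1.36 and 1.64.

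**Figure D3:**
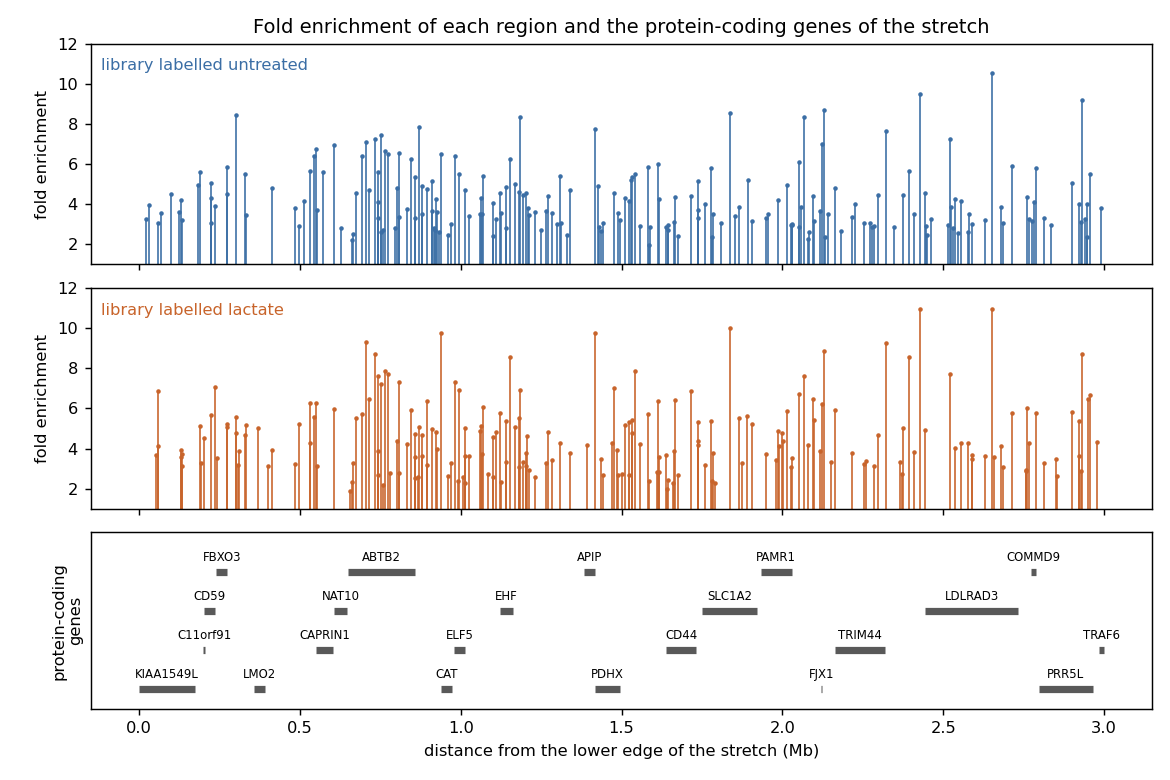
Fold enrichment of each region (vertical axis) against distance from the lower edge of the stretch in Mb, in the untreated-labelled library (top) and the lactate-labelled library (middle), over the protein-coding genes (bottom, staggered for legibility). The highest value, 10.5, lies inside LDLRAD3 in the untreated-labelled library, and in the lactate-labelled library that region and one 16.1 kb outside LDLRAD3 both reach 11.

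The epithelial ETS factors ELF5 and EHF carried regions inside the gene and at an end in both libraries. ELF5, on the minus strand at chr11:34478791-34513794, had 3 regions in its body in the untreated-labelled library and 6 in the lactate-labelled library, or 8.57 and 17.1 per 100 kb. The value in the lactate-labelled library ranked 5 of 8840 genes, and rested in part on closely spaced regions at its end. Counting only summits more than 1 kb from either end left 2 and 4 regions, at ranks 429 and 51. Its strongest region, inside the gene at chr11:34483317-34484598, had a pileup of 132 and a fold enrichment of 6.43 in the untreated-labelled library, and 145 and 7.34 in the lactate-labelled library. The end of ELF5 held 1 region in the untreated-labelled library, at chr11:34512959-34513725, and 3 shorter ones in the lactate-labelled library, at pileups of 44 against 41, 18 and 30. The first pair of these overlapped the untreated-labelled region, and the third, at chr11:34513784-34514117, lay beyond it and had no partner. None of the 3 had a higher pileup than the single region.

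EHF, on the plus strand at chr11:34621093-34663288, had 4 regions in its body in each library, or 9.48 per 100 kb. The region at its end had a pileup of 51 and a fold enrichment of 4.59 in the untreated-labelled library and 74 and 5.75 in the lactate-labelled library. A region inside the gene at chr11:34653592-34654420 had 99 and 6.26, and its partner in the lactate-labelled library 156 and 8.58. Neither listed EHF promoter, nor that of ELF5, lay under a region, but these listed promoters lie inside the gene models. The starts of the models, 34621093 for EHF and 34513794 for ELF5, had the end regions described above in both libraries. In the untreated-labelled library the EHF end region, at chr11:34620507-34621595, covered the EHF start. Of the 28 genes of the ETS family, ELF5 and EHF included, 16 and 18 had a region at an end, against 43.5% and 49.5% of all protein-coding genes.

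All 4 genes of the metabolism list, APIP, PDHX, CAT and NAT10, had a region over the promoter in both libraries. The region shared by the starts of APIP, an enzyme of methionine salvage, and PDHX, whose listed starts face away from each other, had a pileup of 102 and a fold enrichment of 7.76 in the untreated-labelled library and 135 and 9.76 in the lactate-labelled library. The 58 bases between these listed starts, printed above, held no ETS core, and the PDHX gene model also begins at 34915920, within APIP. The CAT promoter region, at chr11:34438476-34439671, had 85 and 6.52, and 114 and 9.76. The NAT10 promoter region had fold enrichments of 6.95 and 5.96. Beside these, the promoter region of CAPRIN1, an RNA-binding protein, had 6.77 and 6.28. Beyond 1 kb of its ends PDHX held a further 7 and 6 regions. A list of 15 genes held the pyruvate dehydrogenase complex, its regulators and the pyruvate carriers MPC1 and MPC2. Of these, 10 and 13 had a region at an end, against 43.5% and 49.5% of all protein-coding genes. PDHB, DLAT and PDK3 had an end region in the lactate-labelled library alone.

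CD44, at chr11:35139171-35232402, had a promoter region of low fold enrichment on a high background. This region had a pileup of 38 and a fold enrichment of 2.84 in the untreated-labelled library and 54 and 3.67 in the lactate-labelled library, in windows of 636 and 700 tags. It had 6 and 7 regions in the body, with median backgrounds of 543 and 571 tags and fold enrichments of up to 4.40 and 6.85. Of the 25 genes of CD44 and hyaluronan metabolism, 13 and 14 had a region at an end, near the 43.5% and 49.5% of all protein-coding genes. CD59, an inhibitor of complement, lies below the step, and the region over its upper promoter, at chr11:33736391-33736725, was called in the lactate-labelled library alone with a pileup of 34 and a fold enrichment of 7.09, the highest of any member called in 1 library alone. The untreated-labelled library had its own region at this end, at chr11:33737032-33737309, with a pileup of 17 and a fold enrichment of 3.91. SLC1A2 had 10 regions in its body in each library, and the one at chr11:35337180-35337847 had fold enrichments of 8.56 and 10.0.

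ABTB2 was the gene with most regions. Its body, 207 kb long, held 21 regions in the untreated-labelled library and 22 in the lactate-labelled library, or 10.1 and 10.6 per 100 kb, at median backgrounds of 656 and 736 tags. Its strongest region by pileup in the lactate-labelled library, at chr11:34204678-34205325, had 141 with a fold enrichment of 9.31, and its partner 108 with 7.11. LDLRAD3, a receptor of the low-density lipoprotein receptor class A domain family, held 19 and 13 regions, and the highest pileups of the stretch, 162 and 181, at chr11:36149436-36150252. A region 16.2 kb outside LDLRAD3, at chr11:35927673-35928124, had fold enrichments of 9.5 and 11. TRIM44 held 9 and 6 regions, PAMR1 5 and 8, and PRR5L 10 in each.

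Neighbouring members were close to each other. The median gap to the next region was 9.86 kb and 9.61 kb, against 19.8 kb and 22.5 kb in the flanks. Gaps under 12 kb made up 57.9% and 58.5% in the stretch, 25.9% and 26.6% in the flanks and 29.1% and 34.6% elsewhere. Joining regions across such gaps gave 11 and 7 runs of at least 5 regions, and 33.5% and 26.6% of members lay in them. Elsewhere 5.10% and 8.40% of regions lay in such runs. The longest run, in the lactate-labelled library, had 11 regions over 72.0 kb at chr11:34968975-35040966 in and beyond PDHX. It ranked 5 by length of 32734 runs, a number that includes single regions. The longest in the untreated-labelled library had 8 regions over 49.0 kb at chr11:35549823-35598845. A run of 9 regions in ABTB2 was found in both.

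Most members were called in both libraries. A region overlapped one of the other library in 154 of 209 (73.7%, Clopper-Pearson 95% interval 67.2 to 79.5) and 158 of 207 (76.3%, 69.9 to 81.9). The 55 (26.3%) and 49 (23.7%) called in 1 library alone compare with 28.8% and 38.8% of all regions and 46.3% and 37.2% of flank regions. The members alone in 1 library had median fold enrichments of 3.08 and 3.30, and highest values of 5.60 and 7.09. Shared members had medians of 4.36 and 4.86. Regions alone in 1 library had medians of 3.82 and 4.09 in the flanks and 4.05 and 4.20 over all regions outside the stretch. In the lactate-labelled library the share alone lay below that of the genome, and in the untreated-labelled library its counting interval included it.

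For heights, each region was paired with the overlapping region of highest pileup in the other library. The 151 pairs had a median ratio of pileup scaled by each library's tags, lactate over untreated as labelled, of 1.13 (quartiles 0.966 and 1.32), and all pairs outside the stretch had 1.18. In 100 pairs (66.2%) the lactate-labelled library was higher, against 71.2% of all pairs. A difference of at least 1.5-fold was found upward in 15 pairs (9.93%, background 20.3%) and downward in 4 (2.65%, background 2.95%). The 58 pairs of the flanks were similar in these shares, with 10.3% upward and 3.45% downward. Their median ratio was 1.04, and 51.7% were higher in the lactate-labelled library. The local background at the pairs of the stretch had a median ratio of 1.03, against 0.990 in the flanks and 1.09 over all pairs outside. Divided by the median over all pairs, 1.18, the median ratio of the stretch was 0.960. This pairing was chosen after the data were seen: pairing first by greatest overlap had given 152 pairs, of which 15 were higher and 5 lower, and a lowest ratio of 0.425 at the end of ELF5, where the region was split in the lactate-labelled library. Under both pairings 148 pairs were the same.

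The largest ratio was 2.42, inside KIAA1549L at chr11:33557534-33557733, with pileups of 9 and 21. A region near FJX1 at chr11:35579573-35579924 went from 17 to 33, a ratio of 2.02. One inside CD44 at chr11:35214738-35215291 had 21 and 36, a ratio of 1.78. The lowest ratio, 0.609, was at chr11:33802646-33803012 near FBXO3, with 29 and 17. By gene, median ratios ran from 0.865 at NAT10, with 1 pair, to 1.45 at KIAA1549L, with 3, against 1.18 over all pairs. CD44 had 6 pairs with a median ratio of 1.42, EHF 5 with 1.27, ABTB2 19 with 1.17 and LDLRAD3 11 with 1.06. Several of the extreme ratios rest on small pileups, and no replicate was available to set them against.

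**Figure D4:**
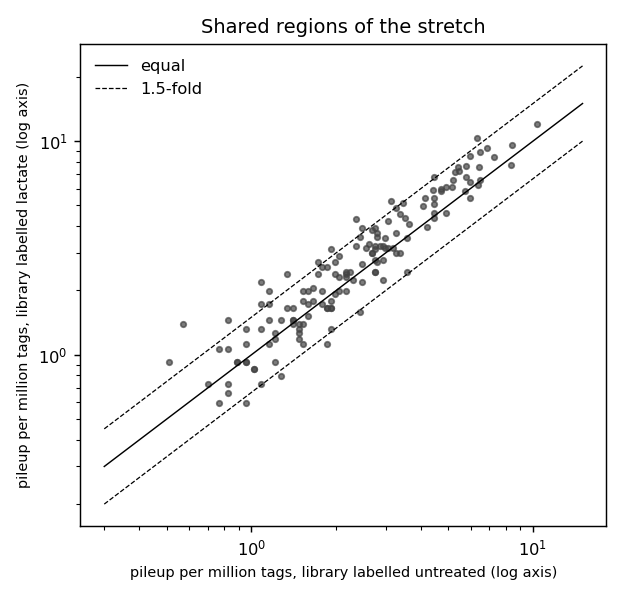
Pileup, scaled to the library's total tags, of the 151 paired regions, in the untreated-labelled library (horizontal log axis) and the lactate-labelled library (vertical log axis); each point is 1 pair, the solid line marks equal values and the dashed lines 1.5-fold. Of the pairs, 15 lie on or above the upper dashed line and 4 on or below the lower.

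The labelled cell type was set beside lists of markers. A region at an end or in the body was found in 62.9% and 67.5% of all protein-coding genes. Such a region was found in 15 and 17 of the 18 genes of squamous epithelium, 5 and 4 of 10 of fibroblasts, 6 and 6 of 10 of blood, 7 and 6 of 10 of endothelium and 7 and 7 of 10 of neurons. KRT14 had none in either library, and KRT5 had 2 end regions in each. Most neuronal and endothelial markers were marked too, so these counts do not by themselves identify the cell type.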

How the data were processed

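Per the labels' protocols, antibody-guided pA-Tn5 cut permeabilised CAL27 cells. The submitters' processing notes name hg38, fastp 0.20.0, BWA and MACS2 2.1.0. MACS 2.1.0.20150420 called each library on its own, with no control, per the file headers, which give 0.05 as the q cutoff, -100 as the shift, 200 bp as the extension and 10000 bp as the span of the local background. The authors deposited a pileup for each summit, which is an unscaled signal counted in tags, and a fold enrichment, the ratio of pileup to local background after adding 1 to both.

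Here summits were merged by start and end into regions, keeping the summit with most fold, and the background was computed as (pileup + 1) / fold - 1. It equalled whole tags per 10 kb within 0.05 tags, or the genome-wide floor of 50.6 or 48.8 tags, in 100% of regions. No floor value occurred in the stretch, 5 and 4 in the flanks. Genes and promoters came from RefSeq. Python 3.11.15, pandas 2.3.3, numpy 2.4.6 and scipy 1.17.1 were used, and the scripts were tested on simulated data. The members and lists were chosen with earlier results of these data known. The step, the tags outside regions, CCGGAA and the pairing by highest pileup were added after the data were seen. Named regions were those of highest fold, pileup, background, length or ratio, those alone in 1 library, the longest runs and all protein-coding genes of the stretch.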

Additional observations from a re-analysis of the deposited data

How the results depend on the processing

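Of 62 alternatives over 19 values, 35 left the value within its interval or, for counts, within 1.5 times, 26 moved it and 1 turned its direction. The values below are given as untreated and then lactate, as labelled. The density ratio of stretch to flanks (3.87 and 4.40) was 5.86 and 6.41 where the -log10 p, recomputed, reached 7, 5.36 and 5.79 with flanks of 6 Mb, and 2.93 in the untreated-labelled library with the window moved 0.5 Mb down. The background ratio (2.80 and 2.98) was 2.45 and 2.48 for tags outside regions and, in the untreated-labelled library, 3.23 at a fold of at least 5 and 2.41 at the lower quartile. Shared regions alone had median folds of 4.36 and 4.86, lengths of 462 and 459 bp and pileups of 35.5 and 37. At a fold of at least 5, 98.1% and 97.4% of members were shared and 9 genes had a marked end in the untreated-labelled library. The ratio of close gaps (2.23 and 2.20) was 3.04 and 2.72 under 5 kb and 1.38 and 1.61 under 25 kb. Of the pairs, 2 were higher and 0 lower at a fold of 2, where all pairs gave 3.33% and 0.328%. Scaled to a median of 1 over all pairs, 5 were higher and 11 lower, and the median ratio went from 1.13 to 0.960, which follows from dividing every ratio by 1.18. Pairing by greatest overlap left 15 higher and 5 lower. The cause of the other shifts was not tested. No paired analysis was possible because each group had 1 library. Tag counts per 10 kb limit single regions, and no control library was used here.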
